A study of Mus musculus with 11 samples.

Results

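The genes described here encode the proteins of the cytosolic ribosome. They were taken from the deposited gene table by name: Rps or Rpl followed by a number and at most one letter a, x or l, the stalk genes Rplp0 to Rplp2, and Rpsa. Of 81 names of this form, 77 had at least 10 counts in 3 or more of the 11 libraries and are called members below, out of 24849 genes in the table. They comprise 31 genes of the small subunit, 43 of the large subunit and 3 of the stalk. The names left out were Rpl10l and Rpl39l, listed at 0 in every library, Rpl3l, with at most 4 counts in a library, and Rpl32l, with at most 3.

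The RNA came from AML12, a hepatocyte line derived from mouse liver, and was enriched for polyadenylated molecules before sequencing. The 4 KO libraries are labelled as a TXNDC5 knockdown, and the study's methods describe cells cut in the Txndc5 gene with CRISPR/Cas9 and selected with puromycin through a resistance cassette. The 4 KI libraries are labelled as a TXNDC5 knockin, with overexpression from the ROSA26 safe-harbour locus, and the 3 WT libraries come from AML12 cells labelled WT. TXNDC5 is a disulfide isomerase of the endoplasmic reticulum. The WT libraries are named 5-6, 7 and 8, the others 5 to 8 in each line. The labels do not say whether libraries of a line came from separate cultures, so p-values measure the spread between these libraries, which may be technical. The number of clones behind each altered line is not stated, and KO differs from WT by its drug selection as well as by Txndc5, which cannot be told apart. KI likewise differs from WT by its editing at ROSA26 as well as by Txndc5, and these cannot be told apart either.

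Ribosomal proteins are made in near equal molar amounts and assemble with ribosomal RNA in the nucleolus before export to the cytoplasm. Most of their mRNAs start with a cytidine followed by a run of pyrimidines, the TOP motif, through which translation, and to some degree mRNA stability, responds to growth signals through mTOR complex activity and the binding protein LARP1. Their coding sequences are short and their mRNAs are among the most abundant of a cell, and the mouse genome carries many processed pseudogenes of them.

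The start regions of members that the comparisons below turn on are shown because the TOP motif lies there. RefSeq promoter sequences on GRCm38.p6 were found for 57 of the 77 members. Each line gives 30 bases before and 20 bases from the annotated start, 5′ to 3′ on the gene's strand, with the pyrimidine run that covers the start in capitals. For Rps24, which has 2 listed starts, the upstream one is shown.
Rps24, chr14:24490648-24490697, plus strand: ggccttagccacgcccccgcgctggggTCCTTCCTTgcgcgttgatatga
Rps27, chr3:90213629-90213678, minus strand: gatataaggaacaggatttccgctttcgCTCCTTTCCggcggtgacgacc
Rpl38, chr11:114668550-114668599, plus strand: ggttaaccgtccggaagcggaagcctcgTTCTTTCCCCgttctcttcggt
Rpl39, chrX:37085203-37085252, minus strand: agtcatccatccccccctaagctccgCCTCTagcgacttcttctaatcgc
Rpl27a, chr7:109519165-109519214, plus strand: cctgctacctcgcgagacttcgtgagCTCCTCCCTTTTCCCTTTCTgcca
Rpl28, chr7:4792935-4792984, plus strand: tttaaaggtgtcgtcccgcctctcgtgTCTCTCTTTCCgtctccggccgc
Rplp2, chr7:141447621-141447670, plus strand: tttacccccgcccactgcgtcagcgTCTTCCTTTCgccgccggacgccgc
Rpl18, chr7:45718041-45718090, plus strand: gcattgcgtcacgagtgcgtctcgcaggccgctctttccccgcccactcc
Rpl26, chr11:68901536-68901585, plus strand: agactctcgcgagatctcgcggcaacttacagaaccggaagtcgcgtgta
Rplp0, chr5:115559437-115559486, plus strand: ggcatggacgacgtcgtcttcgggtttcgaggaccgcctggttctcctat
Rpsa, chr9:120127736-120127785, plus strand: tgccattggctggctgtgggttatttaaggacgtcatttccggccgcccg
The last 4 have no run over the annotated start, although Rpl18 holds a pyrimidine stretch just after it. A run of 5 or more pyrimidines over the start was present in 20 of the 57 members, 35.1%, and in 11.8% of all 27025 genes with a promoter of the same length. From 250 bases before to 50 after the start, the core of the GABP site (CCGGAAG, either strand) was present in 42.1% of the members and 9.93% of all genes, the Sp1 core (GGGCGG, either strand) in 61.4% and 38.2%, and a YY1 site (AAGATGGC, either strand) in 8.77% and 3.19%. These are matches of letters and not sites shown to be bound.

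Series-wide, library totals ranged from 29840366 to 38422243 counts. Txndc5 itself had 287 to 430 counts in the KO libraries, 3299 to 4046 in WT and 5344 to 6723 in KI, in the order of the labels. Hepatocyte genes were present, with a summed level of 5159 to 6375 CPM (counts per library of standard size, here after TMM scaling) in KO, 1943 to 2785 in WT and 1752 to 2333 in KI over 8 markers, and all 8 had at least 10 counts in every KO library and 7 of 8 in every WT and every KI library. The cholangiocyte markers Krt19 and Spp1 were expressed too, the sum of 5 such markers being 1339 to 1503 in KO, 2973 to 4378 in WT and 2604 to 3082 in KI with Epcam at 0, immune markers summed to at most 9.56, and the fibroblast and endothelial sets each to at most 1.65. The hepatocyte sum was highest in KO mainly through Alb, at 3588 to 4766 CPM in KO, 373 to 739 in WT and 160 to 302 in KI. Apob, Hnf4a and the less expressed Apoa1 and Cps1 were also higher in all KO than in all WT libraries. Ttr and Apoe were lower in KO than in WT, at 393 to 532 against 612 to 1042 and at 153 to 217 against 380 to 554. So was Serpina1a, at 0.25 to 1.26 against 6.70 to 9.94. The cholangiocyte sum was highest in WT mainly through Spp1, at 1945 to 3287 in WT against 211 to 282 in KO, while Krt19 was higher in KO, at 1035 to 1175 against 653 to 862. Krt7 and Sox9 were lower in KO, at 15.1 to 18.2 against 166 to 188 and at 27.6 to 37.8 against 40.3 to 57.2. The part of these markers in the results was not tested. The WT libraries had a different composition. Entries newly assembled by the authors took 18.8% to 25.3% of their counts against 11.9% to 13.4% in KO and 9.65% to 16.4% in KI, and the 10 most abundant genes took 21.0% to 28.0% against 13.3% to 14.8% and 12.0% to 18.2%. The most abundant newly assembled entry by itself took 11.3% to 17.1% of the WT libraries, 4.32% to 6.44% of KO and 4.82% to 9.12% of KI.

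Ribosomal protein genes took a larger part of the WT libraries than of either altered line. They held 9.09%, 8.19% and 6.76% of all counts in WT 5-6, 7 and 8. In KO 5 to 8 the share was 6.46%, 5.83%, 5.70% and 5.22%, and in KI 5 to 8 it was 5.41%, 5.92%, 5.20% and 5.93%. All WT shares lay above all others, with WT 8 only narrowly above KO 5. The mean share was 8.01% ± 1.17 (SD, n = 3) in WT, 5.80% ± 0.51 (SD, n = 4) in KO and 5.62% ± 0.37 (SD, n = 4) in KI. The gap was wider when the newly assembled entries were taken out of the total, at 10.4%, 6.64% and 6.53% of the counts on annotated genes. It was also wider on the TMM scale, which sets the bulk of the genes equal between libraries. There, the members summed to 122192, 100307 and 71388 CPM in the WT libraries, to 46100 to 61623 in KO and to 46621 to 58375 in KI. In bulk RNA, less ribosomal protein mRNA per cell and a larger amount of all other RNA cannot be told apart.

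**Figure D1:**
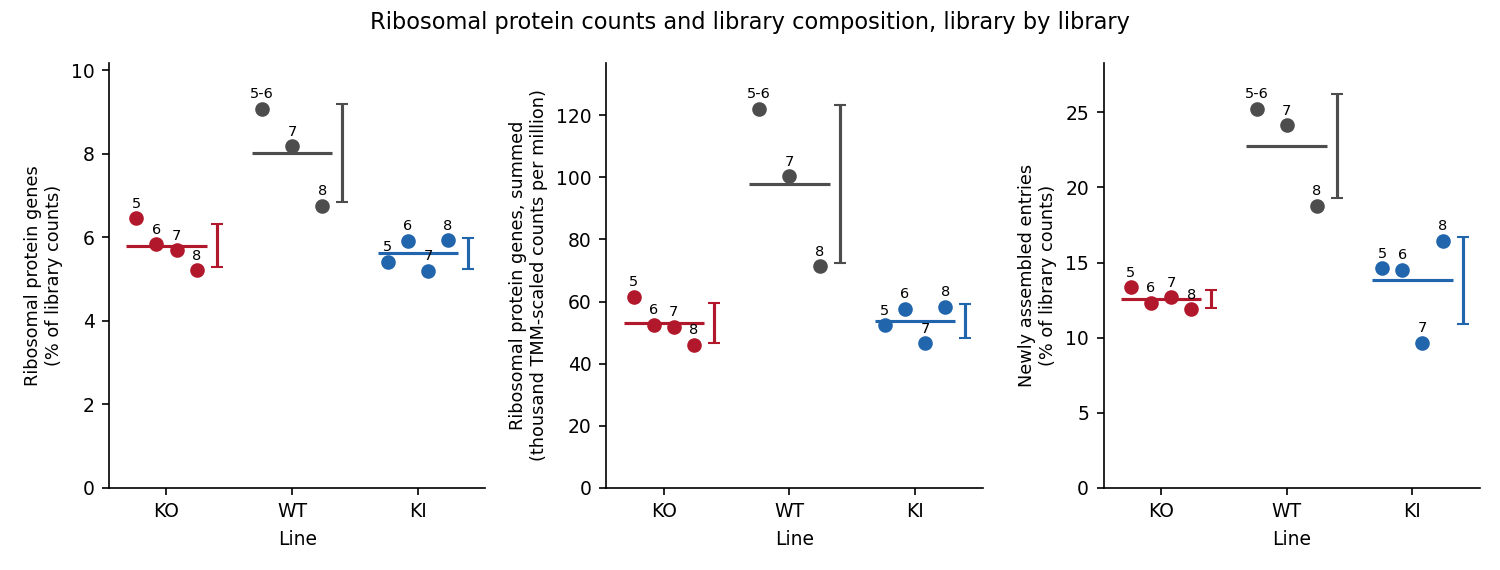
Share of library counts on the 77 ribosomal protein genes (left, percent), their summed level after TMM scaling (middle, CPM divided by 1000) and the share of counts on newly assembled entries (right, percent), one point per library labelled with its replicate number, with the line's mean and a bar of 1 SD beside it. The 3 WT libraries lie above all KO and KI libraries in each panel, WT 8 is the lowest of them in each, and its family share of 6.76% lies just above the 6.46% of KO 5.

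Within KO and within WT, most members shared an order of libraries. Neither this order nor the spread given below was set against all genes, so neither can be called particular to the family. WT 5-6 held the highest WT level of 67 of the 77 members and WT 8 the lowest of 60. Against the mean of the other WT libraries, the median member was 0.50 higher in WT 5-6 and 0.69 lower in WT 8 on the log2 scale. The highest WT library exceeded the lowest 1.83-fold for the median member, against 1.38-fold in KO and 1.44-fold in KI. In KO, library 5 was highest for 64 members and library 8 lowest for 62. In KI, library 7 was lowest for 56 members and highest for 0. The highest KI library was less uniform, with KI 8 highest for 43 members and lowest for 15, and KI 6 highest for 31. Some members departed from the rest of their line, the ratio of highest to lowest library reaching 5.22 in KO (Rpl21), 4.42 in WT (Rps18) and 5.20 in KI (Rpl17). In each line, the libraries at the top and bottom for most members also had the largest and smallest share of newly assembled entries. This share was 25.3% in WT 5-6 and 18.8% in WT 8. It was 13.4% in KO 5 and 11.9% in KO 8, and 16.4% in KI 8 and 9.65% in KI 7. The part of library composition in these differences was not tested.

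**Figure D2:**
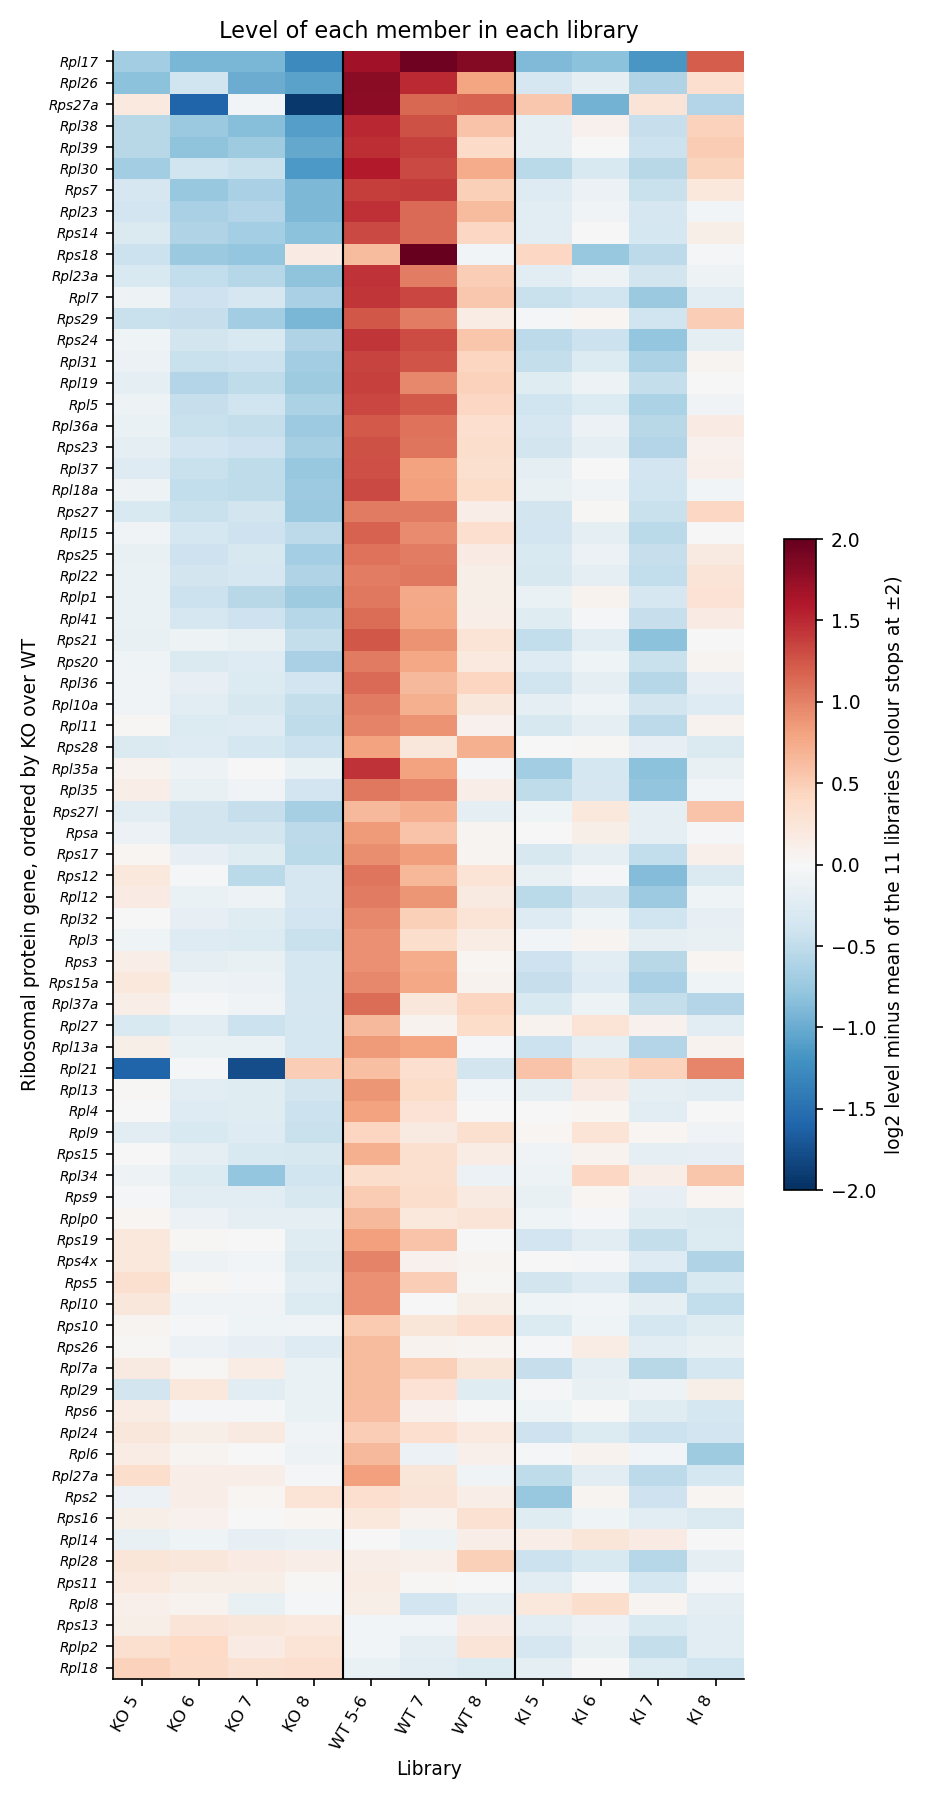
Level of the members (rows, 1 of the 77 left out, ordered by the log2 fold change of KO over WT) in each of the 11 libraries (columns), as log2 of TMM-scaled CPM plus 0.1 minus the row's mean over the libraries. Most rows are darkest red in WT 5-6, paler in WT 7 and palest in WT 8, while Rpl17 is red in KI 8 and blue in the other KI libraries and Rps27a alternates among the KO and KI libraries.

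The comparison of KO with WT asks what changed in cells without normal TXNDC5. Most ribosomal protein genes were lower in KO. With edgeR's quasi-likelihood test and an adjusted p under 0.05, 58 of the 77 members were lower, 1 was higher and 18 were not called, where 28.4% of all 13359 genes tested were called lower and 26.7% higher. The median log2 fold change was -0.87 over the members and -0.03 over all genes. Both subunits took part, with 23 of 31 small subunit genes lower (median -0.87) and 33 of 43 large subunit genes lower (median -0.90). All 4 KO libraries lay below all 3 WT libraries for 50 members and above them for 2, of which Rpl18 was called. Among all genes tested, 27.1% had every KO library below every WT library and 28.2% had every one above. Without WT 5-6, 48 members were lower with a median of -0.63, and without WT 8, 61 with a median of -1.02. The median of all genes was then -0.007 and 0.02, and shares of all genes called are not given for these fits.

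**Figure D3:**
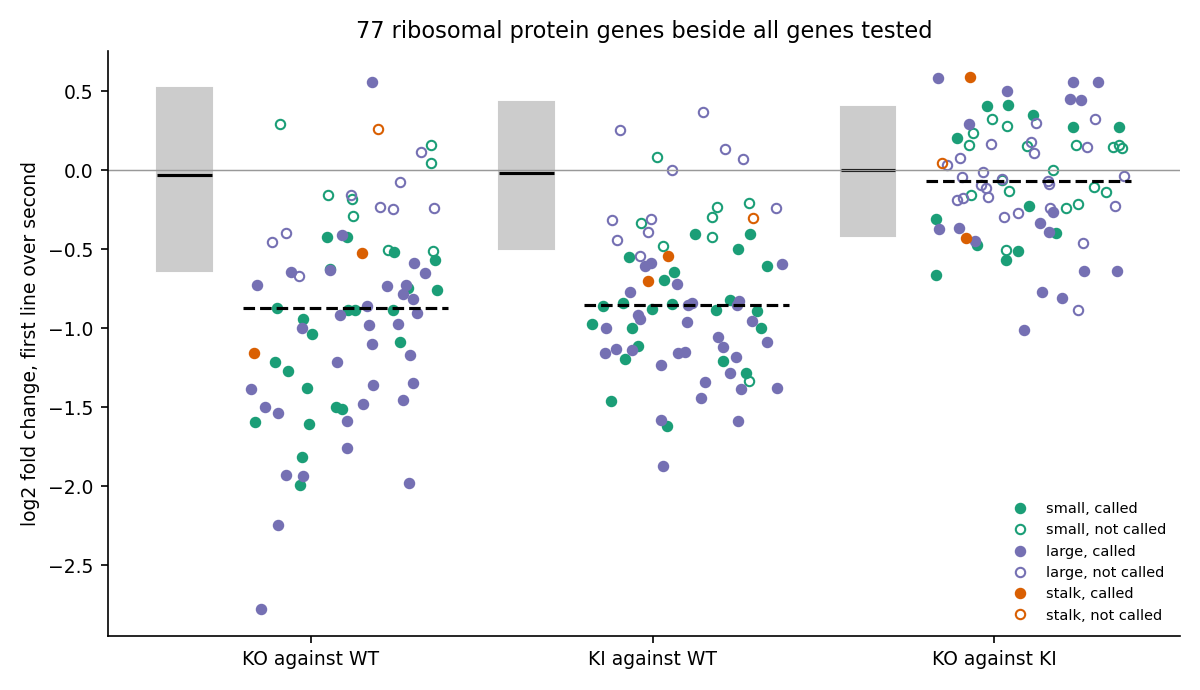
Log2 fold change of each member in the 3 comparisons (points, coloured by subunit, filled where called at an adjusted p under 0.05), with the median of the members as a dashed line and, in grey, the quartiles and median of all genes tested. The members' medians of -0.87 and -0.85 against WT lie below the lower quartile of all genes, and the median of KO against KI is -0.07.

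Among small subunit genes, Rps14 was examined in the study. Its protein lies on the platform of the subunit. Its level was 968, 782, 740 and 672 CPM in KO 5 to 8, 2948, 2600 and 1582 in WT 5-6, 7 and 8, and 1013, 1187, 929 and 1281 in KI 5 to 8. The KO and WT libraries did not overlap, and the log2 fold change was -1.61 ± 0.22 (SE; edgeR adjusted p = 0.00012). Rpsa, the laminin receptor homologue that is also a small subunit protein, had 2022, 1708, 1715 and 1526 in KO against 3977, 3267 and 2291 in WT, and fell by 0.89 (SE 0.20; edgeR adjusted p = 0.0029). Rps3, which lines the mRNA entry, was the second most abundant member and was at 2377 ± 343 (SD, n = 4) in KO and 3960 ± 1155 (SD, n = 3) in WT. Its log2 fold change was -0.76 ± 0.22 (edgeR adjusted p = 0.012), but KO 5 at 2854 lay above WT 8 at 2667, and the call was lost without WT 7 (log2 fold change -0.66). Rps4x, on the X chromosome, was not called at -0.51 ± 0.23 (edgeR adjusted p = 0.080): WT 5-6 was at 3104, WT 7 and 8 at 1664 and 1629, and KO between 1278 and 1807. DESeq2 called it lower (adjusted p = 0.035), as did edgeR without WT 8, at -0.65 (edgeR adjusted p = 0.018).

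Rps27a encodes ubiquitin fused to a small subunit protein, and its libraries spread more than those of most members. Its level was 440, 127, 370 and 100.2 CPM in KO 5 to 8, 556, 199, 460 and 256 in KI 5 to 8, and 1333, 849 and 870 in WT. Libraries 6 and 8 were low and libraries 5 and 7 high in both altered lines, and all were below WT. The log2 fold change of KO over WT was -1.99 ± 0.45 (edgeR adjusted p = 0.0031), and without WT 8 it was -2.07 (edgeR adjusted p = 0.061). Rps27 and its paralog Rps27l, a target of p53, both fell in KO, by 1.27 (SE 0.21; edgeR adjusted p = 0.00047) and by 0.89 (SE 0.21; edgeR adjusted p = 0.0038). Rps27 was at 271 ± 34.1 (SD, n = 4) in KO and 644 ± 204 (SD, n = 3) in WT, and Rps27l at 159 ± 20.3 and 289 ± 90.5.

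Apart from that of Rps27a, the largest falls were in the large subunit. Rpl17, whose protein sits near the exit of the peptide tunnel, had 75.4, 64.8, 65.2 and 50.7 CPM in KO 5 to 8 and 391, 471 and 436 in WT. The log2 fold change was -2.78 ± 0.15 (edgeR adjusted p = 3.0e-07), far outside the spread of either line. Rpl26, a regulator of p53 translation in addition to its place in the ribosome, fell by 2.24 (SE 0.24; edgeR adjusted p = 2.2e-05), from 86.9, 70.0 and 43.2 in WT to between 11.7 and 18.8 in KO. The assignment of reads between copies, described below, may limit the values of Rpl17 and Rpl26. Rpl38, known for the selective translation of Hox mRNAs, fell by 1.98 (SE 0.21; edgeR adjusted p = 2.5e-05), with 117 to 173 in KO and 716, 610 and 373 in WT. Rpl39, one of the smallest ribosomal proteins, was at 457 ± 61.1 (SD, n = 4) in KO and 1719 ± 622 (SD, n = 3) in WT, and its log2 fold change was -1.93 ± 0.24 (edgeR adjusted p = 6.7e-05).

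The most abundant members changed to different degrees. Rpl13a, which can also leave the ribosome to silence inflammatory mRNAs, had the highest mean level of all members and was at 2123 to 2939 in KO and 4881, 4679 and 2669 in WT, so that the lines overlapped. It fell by 0.73 (SE 0.22; edgeR adjusted p = 0.016), a call lost without WT 5-6 (-0.55) or WT 7 (-0.59). Rpl7, the third most abundant member, fell by 1.54 (SE 0.23; edgeR adjusted p = 0.00020), from 5526, 5165 and 2983 in WT to between 1305 and 1905 in KO. Rpl3, which reaches the peptidyl transferase centre, fell by 0.78 (SE 0.18; edgeR adjusted p = 0.0041), with -0.51 without WT 5-6. Rpl10, which joins the subunit late in its assembly, was not called at -0.46 ± 0.22 (edgeR adjusted p = 0.098), but was without WT 8, at -0.55 (edgeR adjusted p = 0.037).

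Only Rpl18 was called higher in KO. It had 1029, 968, 921 and 943 CPM in KO 5 to 8, 682, 641 and 619 in WT and 652, 751, 620 and 564 in KI. All KO libraries lay above all others, and KO over WT was 0.56 ± 0.13 (edgeR adjusted p = 0.0035). Leaving out any 1 library kept the value between 0.53 and 0.62. Rpl28 did not differ detectably between KO and WT, at 507 ± 16.7 (SD, n = 4) and 527 ± 78.4 (SD, n = 3) CPM. Its log2 fold change was -0.07 ± 0.13 (edgeR adjusted p = 0.67).

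The stalk genes, whose proteins recruit the elongation factors, differed among themselves. Rplp0, the base of the stalk and a common reference gene, was at 2073, 1865, 1768 and 1766 in KO, 3174, 2344 and 2432 in WT, and 1908, 1986, 1712 and 1664 in KI. It fell by 0.52 (SE 0.16; edgeR adjusted p = 0.016) in KO, and the call was lost without KO 7 (-0.50), KO 8 (-0.50) or WT 5-6 (-0.35). Rplp1 was at 1207 ± 211 (SD, n = 4) in KO and 2656 ± 826 (SD, n = 3) in WT and fell by 1.16 (SE 0.22; edgeR adjusted p = 0.0012). Rplp2 was at 420, 444, 375 and 404 in KO and 321, 295 and 401 in WT and was not called, at 0.26 ± 0.14 (edgeR adjusted p = 0.14).

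**Figure D4:**
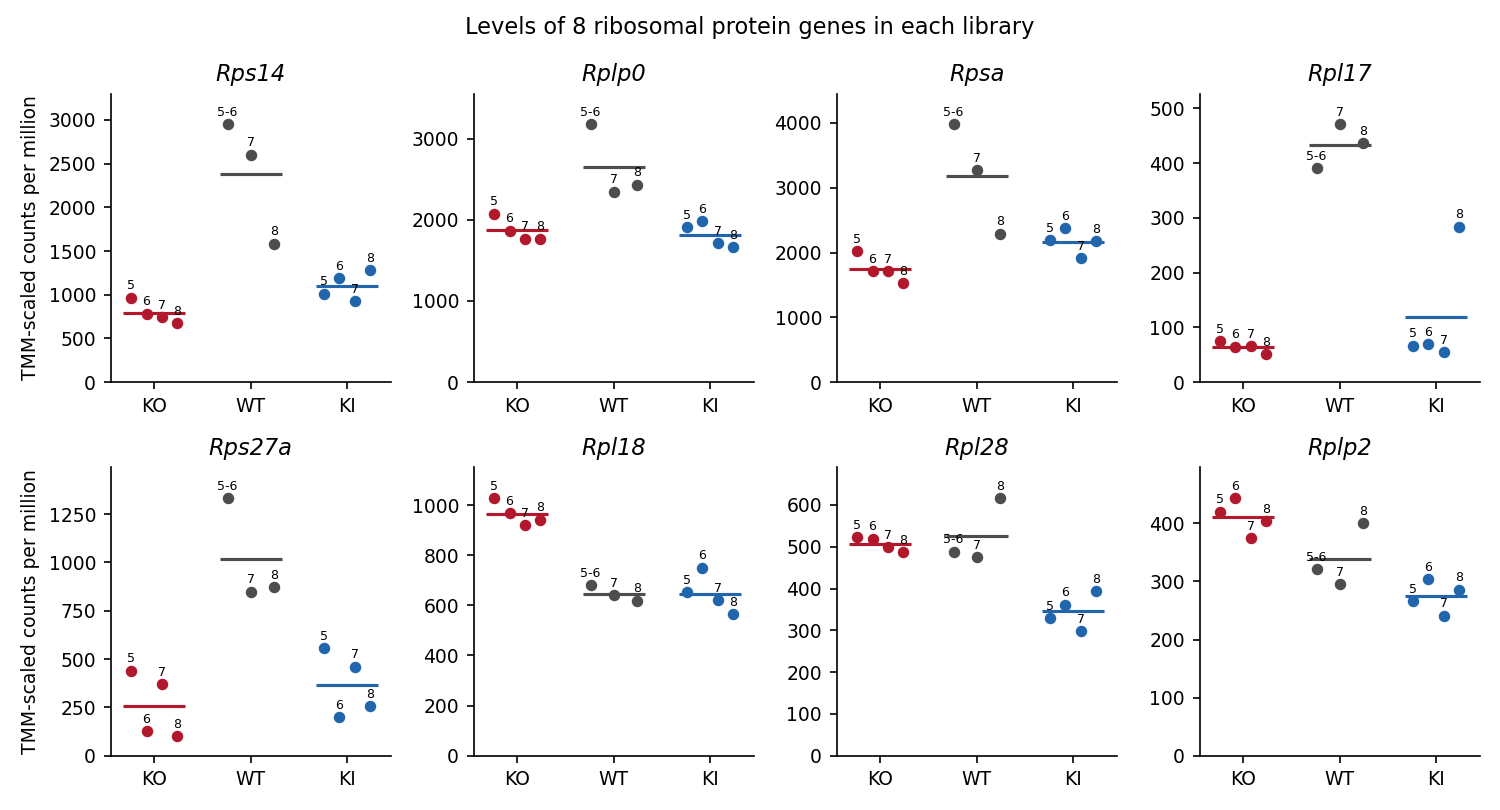
Levels in TMM-scaled CPM (vertical axes from 0) of Rps14, Rplp0, Rpsa, Rpl17, Rps27a, Rpl18, Rpl28 and Rplp2 in each KO, WT and KI library, one point per library labelled with its replicate number and a line at the mean. Rps14 is lower in every altered library than in WT, Rpl18 is higher in the 4 KO libraries than in all others, Rpl28 and Rplp2 are higher in all KO than in all KI libraries, and KI 8 stands apart for Rpl17 at 284.

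The comparison of KI with WT uses the same WT libraries and sets the line with raised Txndc5 beside them. Here too most members were lower than in WT: 57 of 77 were called lower, 0 higher and 20 were not called by edgeR's test, where 21.0% of all 13534 genes tested were lower and 21.2% higher. At an unadjusted p under 0.05 edgeR also found none higher and 62 lower, and DESeq2 called 60 lower and none higher after adjustment. Shares of all genes called are not given for these counts, nor for those without a WT library below. The median log2 fold change was -0.85 over the members and -0.02 over all genes. Small subunit genes had 23 of 31 lower (median -0.84) and large subunit genes 32 of 43 (median -0.94). All 4 KI libraries lay below all WT libraries for 50 members, against 21.3% of all genes tested. Since the WT libraries are shared, a high or low WT library moves both comparisons with WT in the same way: without WT 5-6 46 members were lower in KI, and without WT 8 62 were.

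The largest falls in KI were those of Rpl17, Rps24, Rpl7 and Rpl26. Rpl17 was at 66.6, 69.6 and 54.6 in KI 5 to 7 but at 284 in KI 8, all below WT. The log2 fold change of -1.87 ± 0.59 (edgeR adjusted p = 0.038) became -2.76 without KI 8 and stayed called, and leaving out any other library took the adjusted p to between 0.059 and 0.13. Rps24, a gene mutated in Diamond-Blackfan anaemia, fell by 1.62 (SE 0.22; edgeR adjusted p = 0.00011), from 3501, 3204 and 1898 in WT to 898, 962, 755 and 1130 in KI. Rpl7 fell by 1.59 (SE 0.22; edgeR adjusted p = 0.00014) and Rpl26 had a log2 fold change of -1.58 ± 0.24 (edgeR adjusted p = 0.00027). Rps14 fell by 1.11 (SE 0.21; edgeR adjusted p = 0.0013) and did not overlap with WT. Rpl28 fell by 0.61 (SE 0.15; edgeR adjusted p = 0.0069), to 346 ± 41.1 (SD, n = 4), and Rplp0 by 0.54 (SE 0.17; edgeR adjusted p = 0.020), a call lost without WT 5-6 (-0.39), KI 5 (-0.57) or KI 7 (-0.52).

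Other members were called in KI at values close to the threshold. Rpsa fell by 0.55 (edgeR adjusted p = 0.037), Rps4x by 0.65 (edgeR adjusted p = 0.042), Rpl10 by 0.60 (edgeR adjusted p = 0.041), Rpl3 by 0.59 (edgeR adjusted p = 0.021) and Rps27 by 0.85 (edgeR adjusted p = 0.015), and each lost its call without WT 5-6 and without KI 5, among other single libraries. Without WT 5-6 the values were -0.36, -0.28, -0.25, -0.33 and -0.70. Rpl39, Rpl13a and Rps3 fell by 1.14, 0.85 and 0.89, with the call of Rpl13a lost without WT 7 (-0.74). Rps27l, at 235 ± 57.6 (SD, n = 4) in KI, was not called at -0.30 ± 0.23 (edgeR adjusted p = 0.31), but was without WT 8, at -0.53 (edgeR adjusted p = 0.024). Rpl18, whose mean level was 647 in both lines, was not called either (edgeR adjusted p = 0.995).

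Between KO and KI the median over the members was -0.07, and some members were called in each direction. Of the 77, 14 were higher in KO (18.2%), 19 lower (24.7%) and 44 not called, where 27.0% of all 13269 genes were called in each direction. These shares lie near or below those of all genes. Every KO library lay above every KI library for 12 members and below for 8, against 24.2% and 24.4% of all genes tested. The stalk gene Rplp2 was the member with the largest rise: the KO libraries at 375 to 444 lay above the KI libraries at 266, 304, 241 and 286, with 0.59 ± 0.09 (edgeR adjusted p = 7.1e-05). Rpl18 was higher by 0.58 ± 0.10 (edgeR adjusted p = 0.00012). Rpl28, whose KO libraries at 488 to 522 lay above the KI libraries at 298 to 394, was higher by 0.56 ± 0.09 (edgeR adjusted p = 0.00012), and Rpl27a by 0.56 ± 0.10 (edgeR adjusted p = 0.00031).

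Lower in KO than in KI were Rpl38, at -0.81 ± 0.16 (edgeR adjusted p = 0.00060), Rpl39, at -0.77 ± 0.16 (edgeR adjusted p = 0.00081), and Rps29, which encodes a zinc-binding small subunit protein, at -0.66 ± 0.16 (edgeR adjusted p = 0.0021). For all of them, every KO library lay below every KI library. Rpl21 had the largest fall, -1.01 ± 0.40 (edgeR adjusted p = 0.044), but it rested on 39, 117, 32 and 218 counts in KO and 189, 164, 187 and 232 in KI, overlapped, and lost its call without any one of KO 5, KO 7 or the KI libraries, the value then lying between -1.09 and -0.74. Rps14 was lower by 0.48 (SE 0.12; edgeR adjusted p = 0.0043), Rpsa by 0.31 (edgeR adjusted p = 0.020), Rps27 by 0.40 (edgeR adjusted p = 0.044) and Rps27l by 0.57 (SE 0.14; edgeR adjusted p = 0.0036). Rpsa and Rps27 lost their calls without any one of 5 libraries, KO 6, 7 and 8 among them, with values down to -0.25 for Rpsa without KO 8 and -0.21 for Rps27 without KI 8. Rplp0, Rps4x, Rpl3, Rpl10, Rpl13a, Rps3 and Rpl7 were not called between KO and KI, with log2 fold changes from -0.17 to 0.16. Without KO 5, Rpl3 was called at -0.24 (edgeR adjusted p = 0.038).

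The number of members called depended on what the libraries were set equal on. TMM factors were 0.74, 0.82 and 0.95 in WT and 1.02 to 1.13 in KO and KI. With library totals in place of TMM, 39 members were lower and 6 higher in KO, where 15.9% of all genes were called lower and 42.5% higher. In KI 42 were lower and 3 higher, where 10.6% and 34.1% of all genes were. The median of all genes moved to 0.38 in KO and 0.30 in KI. Relative to that median of all genes, the members stood at -0.81 in KO and -0.80 in KI, close to the -0.84 and -0.83 obtained with TMM. A change of scaling moves all genes of a library alike, so this distance could hardly change. It was -0.76 in KO and in KI even with libraries set equal on the family's own sum, and it does not test the scaling. Between KO and KI, library totals gave 17 higher and 15 lower, against 29.7% and 23.2% of all genes.

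Scaling to the summed ribosomal protein counts removes the shift of the family and leaves the change of each member within it. On that scale 22 members were higher and 22 lower in KO, and 14 higher and 9 lower in KI, where 62.7% and 56.6% of all genes tested were called in either direction. Rpl17, Rpl26, Rpl38 and Rpl39 fell relative to the family in KO, by 1.96, 1.31, 1.07 and 1.00, and Rps14 by 0.70 (edgeR adjusted p = 0.00064). Rpl18, Rplp2 and Rpl28 rose relative to it, by 1.41 (edgeR adjusted p = 0.00029), 1.07 (edgeR adjusted p = 0.0078) and 0.74 (edgeR adjusted p = 0.030). Rpsa, Rps27l and Rpl3 stood at 0.02, 0.03 and 0.12 with no call, and Rplp0, Rps3 and Rpl13a, lower with TMM, stood at 0.35, 0.16 and 0.19 with no call. In KI, Rps24 and Rpl7 fell relative to the family, by 0.74 (edgeR adjusted p = 0.0014) and 0.71 (edgeR adjusted p = 0.0015), and Rps14 was at -0.24 with no call. The split between subunits moved little: small subunit genes took 37.6% to 38.4% of the family's counts in WT, 39.6% to 39.9% in KO and 38.6% to 39.3% in KI.

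Short genes in general had lower medians in the altered lines. Members have coding sequences of 75 to 1257 bases, with a median of 453. Among the other genes with coding sequences up to 400 bases, the median log2 fold change was -0.42 in KO (582 genes) and -0.30 in KI (581 genes) against WT, and among those over 2000 bases it was 0.22 and 0.16. The 26 members up to 400 bases stood at -1.09 and -0.99, below other genes of that length, and so did the 30 members of 400 to 600 bases, at -0.77 against -0.23 in KO and -0.83 against -0.14 in KI. The classes above held 19 and 2 members. When the dependence on coding length was removed from each library, a correction chosen after seeing the data, the members' median was -0.53 in KO and -0.65 in KI, while that of all genes was -0.10 and -0.07. Relative to all genes the members then stood at -0.43 in KO and -0.58 in KI, against -0.84 and -0.83 without the correction. In KO 51 were lower and 5 higher, where 32.2% of all genes were lower and 24.8% higher, and in KI 52 were lower and 0 higher, where 24.5% and 20.1% of all genes were.

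**Figure D5:**
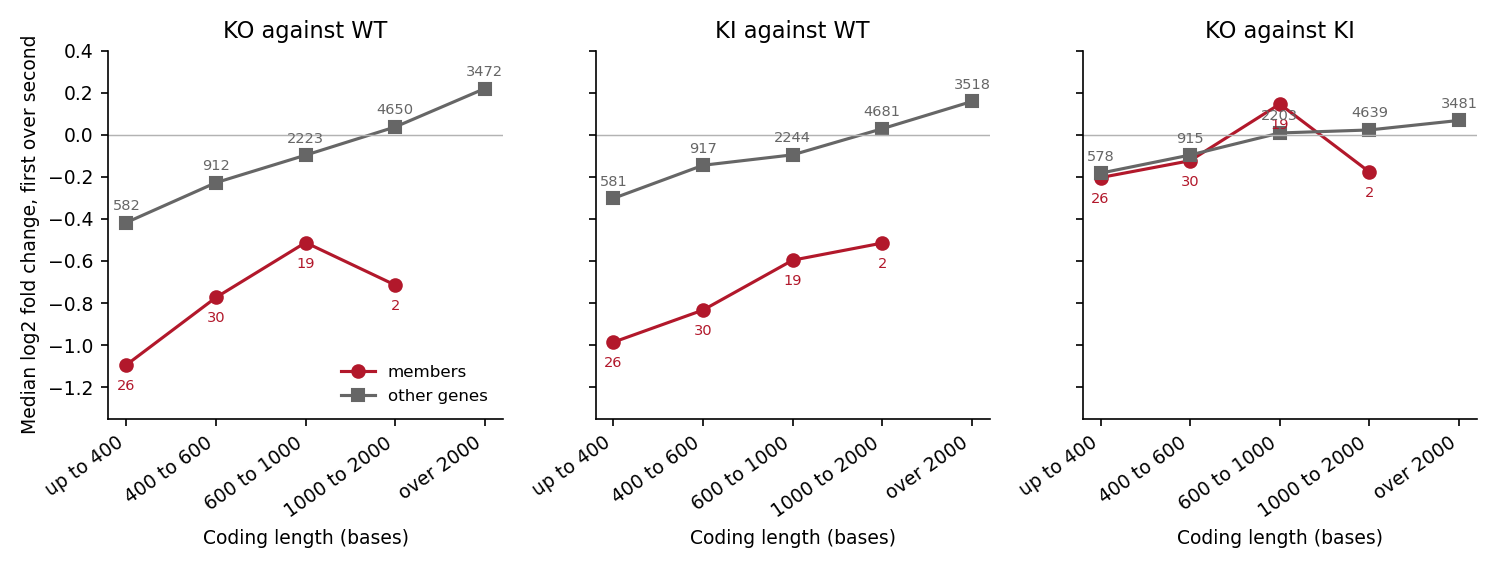
Median log2 fold change (vertical axis) of the members (red circles) and of all other genes (grey squares) in classes of coding length in bases, for the 3 comparisons, with the number of genes at each point. Against WT, short genes have lower medians than long ones in both sets and the members lie below the other genes in every class, with -1.09 against -0.42 for KO up to 400 bases, while in KO against KI both sets lie near 0.

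Abundant members also lay below other short genes of like level. Among short genes, with up to 600 coding bases, and a mean over 10 on the log2 CPM scale, the 17 genes outside the name rule had a median of -0.90 in KO against WT, and the 12 members of that class -1.25. In KI the values were -0.48 (18 genes) and -1.15 (14 members). Between 8 and 10 on that scale, the others stood at -0.44 (80 genes) and the members at -0.87 (33 genes) in KO, and at -0.22 (86 genes) and -0.86 (30 genes) in KI. Here and in the length classes, ribosomal components with other names and other TOP mRNAs were not taken out of the other genes. The classes at high level are small, and the part of length and level in the members' fall beyond these values was not tested. Across the 77 members, Pearson's r of the log2 fold change with log2 coding length was 0.29 in KO and 0.20 in KI, a description over genes that share the same libraries.

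Members with and without the pyrimidine run had similar medians against WT. The 20 members with a run of 5 or more had a median of -0.83 in KO and -0.93 in KI against WT, and the 37 without one -0.76 and -0.84. Between KO and KI the medians were 0.14 and -0.06. The run was scored only over the annotated start, and Rpl18, counted without one, holds a pyrimidine stretch just after it. The split therefore depends on where starts are annotated and cannot separate TOP mRNAs from others. The members shown at the start include the run in Rpl38 and Rpl39, which fell in KO, and in Rpl28 and Rplp2, which were not called. In Rpl39 the run ends at the annotated start, and its other bases lie before it.

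Mean levels over all libraries ran from 2.81 to 2844 CPM, with quartiles at 361 and 1210. Divided by coding length in kilobases they ran from 5.85 to 20723, with quartiles at 881 and 2364, although the proteins are needed in nearly equal numbers. The top value is that of Rpl41, with a coding sequence of 75 bases. The 4 members at the bottom per coding kilobase were Rpl29, Rps2, Rpl21 and Rpl34. Rpl29 had 65 to 109 counts in a library, Rpl21 32 to 232, Rps2 147 to 370 and Rpl34 281 to 708. For Rpl34 and Rps2, other entries annotated as the same kind of protein held more. Rpl34-ps1 had 14899 to 28333 counts and a newly assembled entry annotated as S2 had 392 to 5643. For Rpl29 and Rpl21, no such entry was among those with at least 500 counts in some library. How reads matching several copies were assigned is not given in the sources used here, so the values of these 4 members are uncertain. The same limit bears on Rpl17 and Rpl26. A newly assembled entry annotated as L17 held 971 to 2013 counts in KO and 2697 to 2824 in WT. Rpl17 itself had 2175 to 2691 in KO and 8779 to 12327 in WT. Rpl26 had 412 to 634 counts in KO and 1219 to 1949 in WT. Its level per coding kilobase was 72.3, against a median of 1550 over the members.

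Some other members have several entries in the table. Rps18 and Rps28 each have 4 entries in the table whose shares differ between libraries, and their sums were used. The pair of entries of Rps18 with most counts held 5160 and 840 counts in KI 5 but 882 and 5206 in KO 8, and the corresponding pair of Rps28 held 33 and 4103 in WT 7 but 3248 and 557 in KI 8. Rps10 and Rpl10a have 2 entries each. Outside the name rule, 57 entries were annotated as cytosolic ribosomal proteins, 17 with at least 500 counts in some library, led by Rps3a1 with 34844 to 58907 counts. Together they took 0.36% to 0.49% of WT libraries, 0.27% to 0.34% of KO and 0.30% to 0.35% of KI.

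Most ribosomal components with other names were lower than in WT as well. Of 6 such genes, Fau and Rack1 among them, 5 were lower in KO than in WT and 4 in KI, with medians of -0.98 and -0.69 and none higher. Of all genes tested, 28.4% were called lower in KO and 21.0% in KI. Fau, a ubiquitin-like fusion that yields a small subunit protein, fell by 1.36 in KO (edgeR adjusted p = 0.00014) and 1.07 in KI (edgeR adjusted p = 0.00059), and Rack1, the scaffold on the small subunit head, by 0.89 (edgeR adjusted p = 0.00096) and 0.69 (edgeR adjusted p = 0.0057). The 2 annotated ribosomal protein pseudogenes had medians of -1.28 in KO and -0.73 in KI.

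Other mRNAs of the TOP class, which encode translation factors and related proteins, were mixed. Of 18, 10 were lower and 1 higher in KO, and 7 lower and 3 higher in KI, with medians of -0.44 and -0.23. The lower genes are 55.6% of the list in KO and 38.9% in KI, against 28.4% and 21.0% of all genes tested. The higher ones are 5.56% and 16.7%, against 26.7% and 21.2% of all genes. The translationally controlled tumour protein gene Tpt1 had the largest fall, from 16834 ± 5077 (SD, n = 3) CPM in WT to 2437 ± 352 (SD, n = 4) in KO and 5576 ± 977 (SD, n = 4) in KI, a log2 fold change of -2.81 (edgeR adjusted p = 5.6e-06) and -1.60 (edgeR adjusted p = 0.00023). Npm1, a chaperone of ribosome assembly in the nucleolus, fell by 1.37 in KO (edgeR adjusted p = 0.00021) and 0.58 in KI (edgeR adjusted p = 0.034). The elongation factor gene Eef1a1 was at -0.25 in KO and 0.25 in KI, neither called.

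Genes that control the TOP class at the level of signalling moved in both directions. Of 14 genes of the mTOR and LARP1 group, 6 were higher and 2 lower in KO, and 2 higher and 1 lower in KI. These are 42.9% and 14.3% in KO and 14.3% and 7.14% in KI. Of all genes tested, 26.7% were called higher and 28.4% lower in KO, and 21.2% and 21.0% in KI. Akt1s1, an inhibitor of mTOR complex activity, rose by 1.21 in KO (edgeR adjusted p = 1.1e-05) and Larp1b, a relative of Larp1, by 0.86 (edgeR adjusted p = 0.0023). Mtor itself rose by 0.64 in KO (edgeR adjusted p = 0.011) and Mlst8 by 0.45 (edgeR adjusted p = 0.015). Eif4ebp2 rose by 0.80 in KO (edgeR adjusted p = 0.0041) and Tsc1 by 0.36 (edgeR adjusted p = 0.049). In KI, Mlst8 rose by 0.52 (edgeR adjusted p = 0.016). Rps6kb1, the kinase that phosphorylates ribosomal protein S6, fell by 1.01 in KO (edgeR adjusted p = 0.00012) and 0.54 in KI (edgeR adjusted p = 0.014). Larp1 itself was at 0.27 and -0.09, not called. Of the 6 promoter factors, 2 were higher in KO, Gabpa by 0.64 (edgeR adjusted p = 0.0021) and Tbpl1 by 0.50 (edgeR adjusted p = 0.013), and 1 in KI, Myc by 0.46 (edgeR adjusted p = 0.013).

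Subunits of other large complexes set a scale for the family. Of all genes tested, 28.4% were called lower and 26.7% higher in KO, and 21.0% and 21.2% in KI. The 78 mitochondrial ribosomal protein genes had medians of -0.07 in KO and -0.25 in KI against WT. Of them, 22 were lower in each (28.2%, near the share of all genes in KO), and 17 and 7 were higher (21.8% and 8.97%). Respiratory chain subunits had medians of -0.44 and -0.33, with 44 of 86 lower and 4 higher in KO and 28 of 85 lower and 2 higher in KI. Proteasome subunits had medians of 0.20 and -0.01, with 14 of 38 higher and 7 lower in KO and 12 higher and 9 lower in KI. The cytosolic ribosomal protein genes, at -0.87 and -0.85, had the lowest median of these complexes in both comparisons, where the WT libraries are shared.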

How the data were processed

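Polyadenylated RNA of 4 KO, 3 WT and 4 KI AML12 libraries was sequenced. The authors deposited unnormalized read counts per gene, and the submitters' processing notes name HISAT2, TopHat2, Bowtie2 and StringTie; their roles, the genome build and the handling of strand are not given in the sources used here. Of 26472 lines, 10 without a count in every library were left out, and entries were summed by name. The 11 FPKM columns and 9 columns of the authors' own comparisons (fold changes, adjusted p-values and calls) were not used. Counts were filtered (filterByExpr), TMM-scaled and tested with edgeR 4.0.16 (R 4.3.3, quasi-likelihood test, Benjamini-Hochberg over all genes tested, calls at an adjusted p under 0.05), with only the lines compared in the fit. Errors of fold changes are SE. Levels are CPM scaled over all 11 libraries. The fit was tested on simulated data. Coding lengths came from GENCODE M21 and promoters from RefSeq. The length correction subtracted a loess curve (span 0.4) over coding length from each library. Alternatives used DESeq2 1.42.0, other scalings, filters and library sets. Members and lists were chosen with earlier results of these data known. Named by rule were members the study singled out or listed, Rplp0, Rpsa and paralog pairs, the 4 largest rises and falls among called members of each comparison and those called against the majority, the 3 highest levels, and genes of the written lists. Rplp1, Rpl41 and members with low counts or several entries were named after their values were seen. Some single genes are not reported here. Figures were drawn with matplotlib 3.10.9 in Python 3.11.15.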

Additional observations from a re-analysis of the deposited data

Results flagged for a closer look

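Rpl17 in KI 8 stood apart from the other KI libraries. It had 9343 counts and a level of 284 CPM there, while KI 5 to 7 lay between 54.6 and 69.6, and the gap to the nearest of them was 0.935 of the whole range of the line. Of 48 groups of 4 libraries examined in this way (the named members and the share of the family, in KO and in KI), this was the only 1, where chance gives about 1 in 20, or 2.4 of 48. The cause was not tested.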

How the results depend on the processing

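The fall of most members against WT kept its direction under DESeq2, DESeq2's size factors, TMM without the family, no filter, all 11 libraries in one fit, leaving out the most abundant unannotated entry and using the largest entry of each name, with 56 to 60 members lower in KO and 55 to 61 in KI. Setting the libraries equal on their totals gave 6 members higher in KO and 3 in KI, with medians of -0.43 and -0.49. Setting them equal on the family's own sum gave 22 lower and 22 higher in KO (median 0.052) and 9 lower and 14 higher in KI (median 0.018), as its construction removes the shift. DESeq2 called 2 higher in KO. One fit of all 11 libraries gave 12 lower and 8 higher in KO against KI. Shares of all genes called are given only for the main fit, library totals, the family's sum and the length correction. The other counts of members stand without them. The mean share of the family was 6.64% in KO, 10.4% in WT and 6.53% in KI of the counts on annotated genes, and 9.36% in WT and 6.07% in KI without the most abundant unannotated entry.

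Leaving out 1 library gave 48 to 61 members lower and 1 to 4 higher in KO against WT (median -1.02 to -0.63), 46 to 62 lower in KI against WT (median -1.08 to -0.68), and 14 to 23 lower and 11 to 16 higher in KO against KI. Shares of all genes called are not given for these fits or for the replicate block below. Over all genes, samples with the same replicate number did not all deviate together. Correlations were -0.19 to 0.21 over 12 pairs against -0.20 to 0.17 over 28 other pairs, so the numbers were not taken as pairs. Between KO and WT, KO 5 with WT 5-6 and KO 8 with WT 8 were at 0.16 and 0.21. KO 6 with WT 5-6 and KO 7 with WT 7 were at -0.016 and 0.016. KO 5 with WT 8 and KO 8 with WT 5-6 were at -0.20 and -0.18. Within the family, the libraries of KO and of WT did run in a like order by number, with KO 5 and WT 5-6 highest for 64 and 67 members and KO 8 and WT 8 lowest for 62 and 60. This order was not counted over all genes. With a replicate block, 61 members were lower and 2 higher in KO, 57 lower in KI, and 18 lower and 13 higher in KO against KI. In KO against WT the block called Rps4x (edgeR adjusted p = 0.0047) and Rpl10 (edgeR adjusted p = 0.0068) and not Rps27a (edgeR adjusted p = 0.067), and in KO against KI it did not call Rps27 (edgeR adjusted p = 0.13). Chosen after seeing the data were a length correction (5 higher in KO, also with the block) and leaving out KI 8 and WT 8 together (62 lower in KI, median -1.10).

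Signs turned for some named members. On the family's own sum, KO against WT stood at 0.40 for Rps4x, 0.74 for Rpl28, 0.35 for Rplp0, 0.021 for Rpsa, 0.026 for Rps27l, 0.12 for Rpl3, 0.44 for Rpl10, 0.19 for Rpl13a and 0.16 for Rps3. On that scale KI against WT stood at 0.24 for Rps4x, 0.15 for Rpl28, 0.29 for Rplp0, 0.32 for Rpsa, 0.018 for Rps27, 0.57 for Rps27l, 0.28 for Rpl3, 0.28 for Rpl10 and 0.018 for Rpl13a. Rpl28 in KO against WT was 0.32 with library totals, 0.21 with the length correction and 0.28 with the block added, and -0.12 to 0.083 when 1 library was left out. Rps27l in KI against WT was 0.057 with library totals and 0.016 with the length correction and the block. In KO against KI, leaving out 1 library gave -0.015 to 0.086 for Rplp0 and -0.027 to 0.16 for Rpl7. Apart from the shift that scaling to the family's sum removes, the cause of these changes was not tested. For called members, 721 of the recomputed values kept direction and call, 90 lost the call and 14 changed sign. For members not called, 191 kept direction without a call, 12 became calls and 14 changed sign.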
